A study of Mus musculus with 101 samples.

Results

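The 9 carcinosarcomas of the KB1(L1363P)P mouse model were compared by the share of epithelium that their labels give. They are 9 of the 24 tumours of this genotype and of the 98 tumours in the series. A carcinosarcoma holds a malignant epithelial part and a malignant spindle-cell part side by side. The epithelial-rich group comprised the 6 tumours labelled 75% epithelial or more: tumour 21.1 (98%), tumour 6 (95%), tumour 54.1 (90%), tumours 45 and 53 (85% each) and tumour 54.2 (75%). The epithelial-poor group comprised the 3 tumours labelled 40% or less: tumour 18 (40%), tumour 17 (5%) and tumour 4 (2%). No carcinosarcoma of this genotype lay between 40% and 75%, so tumours 18 and 54.2 are the members nearest to the limits. In the usual naming of these conditional models all 24 tumours lack Trp53 in the tumour cells and carry the Brca1 missense variant L1363P, and the series title places this variant in the coiled-coil domain that binds Palb2. The neighbouring histology classes of the same genotype, 12 sarcomatoid tumours (0% epithelial) and 3 adenocarcinomas (100% epithelial), were used for comparison. The sources used here do not give the driver of recombination, the age of the mice or any treatment.

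Copy number was read from low-coverage sequencing of bulk genomic DNA. A segment value is the log2 ratio of a gene's DNA dosage to the neutral state after segmentation, so that 0 is neutral. A gain call is a deposited copy score above 2, reached at segment values from 0.32 upwards, and a loss call is a score below 2, reached from -0.42 downwards. High-level gain means 1 or more on this scale and deep loss -1 or less. In bulk DNA a change carried by fewer cells and a change of fewer copies per cell cannot be told apart. The labels give no share of tumour cells, and its part in any difference below was not tested.

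Amplification of a receptor gene can replace the ligand as the source of growth signal. Met encodes the receptor tyrosine kinase for hepatocyte growth factor, which in epithelia drives scattering and invasion. Yap1 encodes the transcriptional coactivator that the Hippo kinases hold in the cytoplasm, and its partners of the Tead family switch on growth genes. Brca1 works in homologous recombination, and tumours without this repair are known for many chromosome breaks.

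The 9 profiles had similar noise: the spread between neighbouring log2 ratios was 0.0487 to 0.0589. The 3 spleens, 1 of which carries the title number of tumour 6, had no gene with a call other than 2 and a largest segment value of 0.00544 in size. That spleen is of genotype KB1(L1363P)P, and the others are of genotypes KB1P and KP. Read depth is unknown. All 3 epithelial-poor tumours and 3 epithelial-rich tumours (21.1, 45 and 6) came from library series 5289, while tumours 53, 54.1 and 54.2 came from series 5490. The 3 spleens all came from series 5289, so they give no baseline for series 5490. Tumours 54.1 and 54.2 share a title number and may come from the same mouse. For the other tumours too, separate animals are not stated. A p-value therefore sets a difference only against the spread between these samples. That spread need not be the spread between animals and may in part be technical.

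The engineered loci carried no loss call in any of the 9 tumours. The segment value of Trp53 was 0.05, 0.03 and 0.15 in epithelial-poor tumours 17, 18 and 4. In epithelial-rich tumours 21.1, 45, 6, 53, 54.1 and 54.2 it was -0.00, 0.00, -0.02, 0.01, -0.02 and 0.01. These small values did not overlap, with a difference of -0.08 ± 0.03 (SE, limma p = 0.0386, adjusted p = 0.386). Over all genes 3.8% were lower in epithelial-rich tumours without overlap. Among them were 1391 genes on chromosome 11 from 26.2 to 98.8 Mb, a stretch that holds Trp53, so the shift is not particular to this locus. Brca1 lay between -0.02 and 0.05 in 8 tumours and at 0.32 in tumour 53, just under the gain threshold. Brca2, which is not engineered in this genotype, lay between -0.08 and 0.28 in 8 tumours and at 0.63, a gain call, in tumour 6. Bins of 20 kb neither resolve a missense variant nor settle whether single exons were removed, so these values do not check the genotype labels.

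High-level gain of Met was found in 5 of the 6 epithelial-rich carcinosarcomas and in 0 of the 3 epithelial-poor ones. Over all genes, 2.75% were at high-level gain in at least 1 of the 9 tumours. Gain calls in 5 of 6 epithelial-rich and in no epithelial-poor tumours were found for 45 genes (0.103% of all). The Met segment value was 5.44 in tumour 21.1, 5.41 in tumour 54.2, 5.32 in tumour 54.1, 4.22 in tumour 53 and 3.25 in tumour 45. The deposited copy scores of Met in these tumours were 87, 85, 80, 37 and 19. Tumour 6 was neutral at Met (0.00), as were tumours 17 (0.02), 18 (0.00) and 4 (0.04). The groups therefore overlapped through tumour 6 alone. The mean was 3.94 ± 2.11 (SD, n = 6) against 0.02 ± 0.02 (SD, n = 3), a difference of 3.92 ± 1.15 (SE), with a limma p of 0.00874 that did not pass adjustment over 43513 genes (adjusted p = 0.297).

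High-level gain of Yap1 had the opposite distribution, with 2 of the 3 epithelial-poor tumours and 0 of the 6 epithelial-rich ones. Over all 43513 genes, 41 had gain calls in 2 of 3 epithelial-poor tumours. Yap1 stood at 4.53 in tumour 4 and at 4.43 in tumour 17, with deposited copy scores of 46 and 43. Tumour 18, the epithelial-poor tumour with the highest labelled epithelial share, was neutral (-0.02). In the epithelial-rich tumours Yap1 was -0.13 (21.1), -0.03 (45), -0.00 (6), -0.36 (53), -0.23 (54.1) and -0.03 (54.2), all below 0 and without a loss call. Birc2 and Birc3, which encode inhibitors of apoptosis and lie next to Yap1, had the same values as Yap1 in all 9 tumours. The difference was -3.11 ± 0.90 (SE, limma p = 0.00796, adjusted p = 0.297). No tumour of the 9 had both amplifications, and tumours 18 and 6 had neither.

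**Figure D1:**
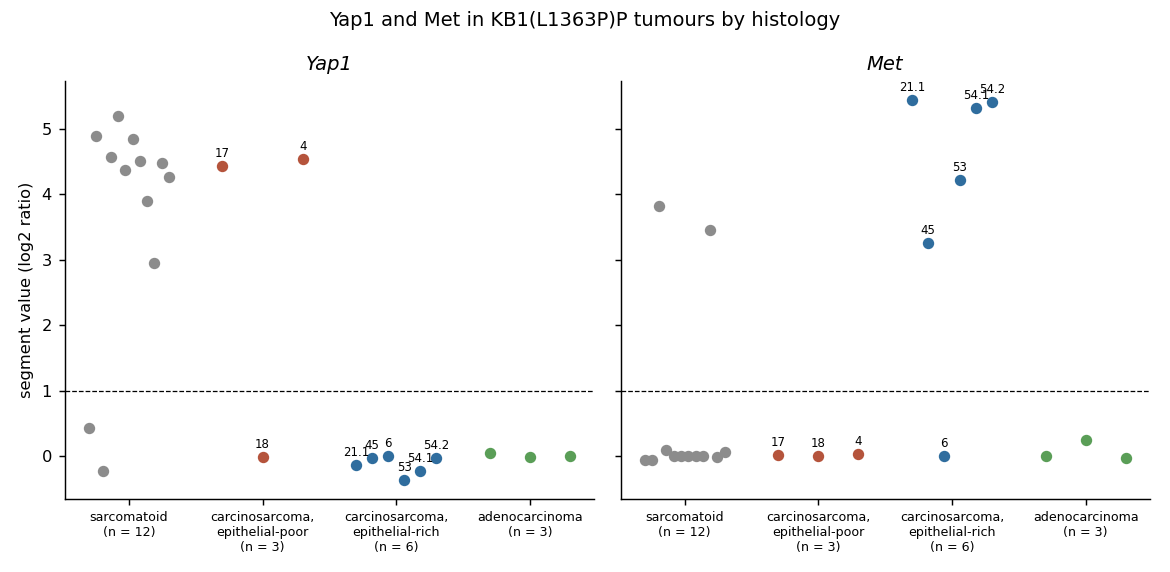
Segment value (log2 ratio, vertical axis) of Yap1 (left) and Met (right) in the 24 KB1(L1363P)P tumours by histology, 1 point per tumour, with title numbers for the 9 carcinosarcomas. The dashed line marks high-level gain (1). Met exceeded it in 5 of 6 epithelial-rich tumours, and Yap1 in 2 of 3 epithelial-poor and 10 of 12 sarcomatoid tumours.

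The same loci were counted in the neighbouring histology classes, a comparison chosen after these values were seen. Yap1 was at high-level gain in 10 of 12 sarcomatoid tumours (2.95 to 5.20) and in 0 of 3 adenocarcinomas. Met was at high-level gain in 2 of 12 sarcomatoid tumours (3.45 and 3.82), 1 of which also had Yap1, and in 0 of 3 adenocarcinomas. Fisher's exact tests were run for both loci in 4 pairs of groups, 8 tests in all. Yap1 differed between epithelial-rich carcinosarcomas and sarcomatoid tumours (0 of 6 against 10 of 12, Fisher's exact p = 0.00151, adjusted p = 0.0121). Within library series 5289 alone these counts were 0 of 3 against 10 of 12 (Fisher's exact p = 0.022, adjusted p = 0.176). Met did not pass against sarcomatoid tumours (5 of 6 against 2 of 12, Fisher's exact p = 0.0128, adjusted p = 0.0513). It did not pass against adenocarcinomas (5 of 6 against 0 of 3, Fisher's exact p = 0.0476, adjusted p = 0.0952) or between the carcinosarcoma groups (5 of 6 against 0 of 3, the same p values). Within library series 5289 alone the carcinosarcoma groups had Met gain in 2 of 3 against 0 of 3 (Fisher's exact p = 0.4, adjusted p = 0.64). With tumours that share a title number counted once, they had 4 of 5 against 0 of 3 (Fisher's exact p = 0.143, adjusted p = 0.229). For Yap1 the carcinosarcoma groups gave 0 of 6 against 2 of 3 (Fisher's exact p = 0.0833, adjusted p = 0.133). Epithelial-poor carcinosarcomas and sarcomatoid tumours had 2 of 3 and 10 of 12 (Fisher's exact p = 0.516, adjusted p = 0.689), which with 3 tumours does not show that they are alike.

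The Met amplicons differed in extent but shared a short stretch. On mm10, Met lies on chromosome 6 from 17463349 to 17573980. Genes from 16524755 to 19319400, a stretch of 2.79 Mb, were at high-level gain in all 5 tumours. It held 28 placed genes, among them Tes, the caveolin genes Cav1 and Cav2, the actin-capping gene Capza2, the Wnt ligand gene Wnt2 and the chloride channel gene Cftr. Met had the highest minimum over the 5 tumours (3.25) of all named genes in the stretch. In tumour 21.1 the segment at 5.44 began at Met, and Cav1 beside it stood at 1.65. In tumour 53 it ended after Met, with Capza2 and Wnt2 at 2.59 and Cftr at 4.53. In tumour 45 the gain at 3.25 ran from 16.2 to 18.2 Mb, and lower gains continued to 62.6 Mb and took in Braf (1.04), a kinase of the Ras pathway. Beyond its amplicon tumour 54.1 dropped to -0.88 and tumour 54.2 to -0.63 on the telomeric side, while tumour 45 continued at 1.38 up to 31.3 Mb and tumour 53 stood at 0.57. The high-level gains around Met began at 11.9 Mb in tumour 21.1, 14.9 Mb in tumour 54.1, 15.7 Mb in tumour 54.2, 16.2 Mb in tumour 45 and 16.5 Mb in tumour 53. Their last gene before a gene-poor gap was the same in tumours 21.1, 45 and 53 (19.8 Mb), while the gain ended at 19.6 Mb in tumour 54.1 and 19.3 Mb in tumour 54.2. Tumours 54.1 and 54.2, which share a title number, thus differed on both sides of Met.

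The Yap1 amplicons of tumours 17 and 4 shared a stretch of 2.69 Mb on chromosome 9, from 6928550 to 9619784. Yap1 itself lies from 7931999 to 8004638. The stretch held 33 placed genes, including 10 matrix metalloproteinase genes such as Mmp13, whose products cut extracellular matrix, the calcium channel gene Trpc6 and the progesterone receptor gene Pgr. In tumour 4 the whole stretch had a single value of 4.53. In tumour 17 a plateau of 4.43 over 1.79 Mb was flanked by steps, and a separate gain of 3.41 lay at the centromeric end of the chromosome, from 3.14 to 3.48 Mb. The rest of chromosome 9, from about 10.9 and 10.7 Mb onwards, stood at -0.12 in tumour 17 and -0.13 in tumour 4.

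**Figure D2:**
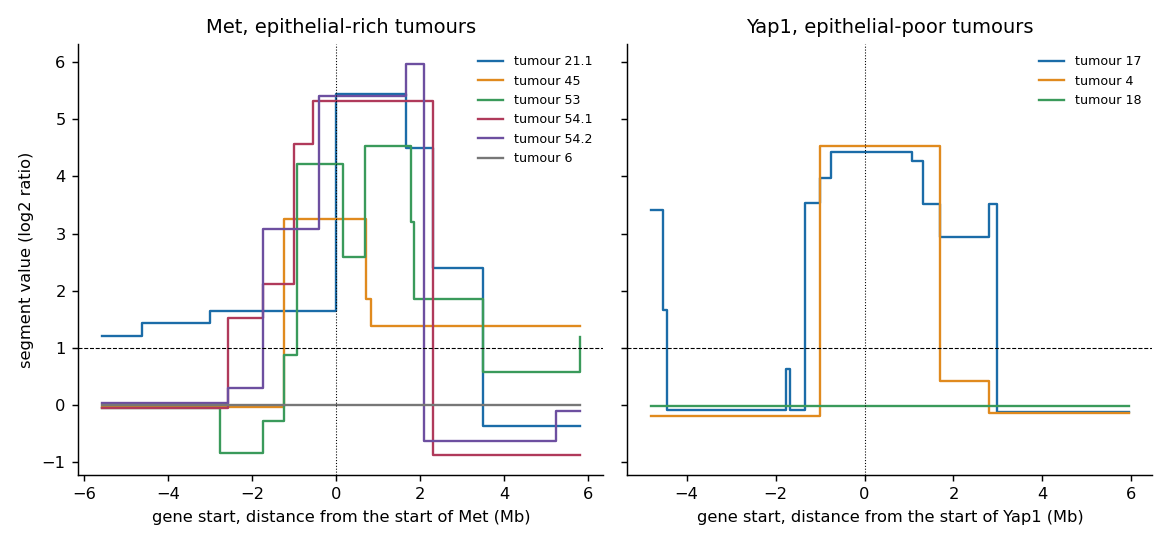
Segment value (log2 ratio, vertical axis) against the distance of each gene from the start of Met (left, the 6 epithelial-rich tumours) and of Yap1 (right, the 3 epithelial-poor tumours), in Mb. Lines are tumours and the dashed line marks high-level gain (1). The Met gains peak at 3.25 to 5.98 and begin at a different distance in each tumour, and tumours 6 and 18 are flat.

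The tumours with neither amplification carried other high-level gains. Tumour 6 (95% epithelial) had a stepped amplicon on chromosome 10 in 3 stretches between 27.0 and 68.3 Mb, with a peak of 3.90 at Mfsd4b4 and neighbouring genes. Foxo3, a forkhead transcription factor of the insulin pathway, stood at 3.54 there, the Wnt signal enhancer gene Rspo3 at 3.55, the Notch effector gene Hey2 at 3.82, the receptor gene Ros1 at 2.85 and the Let-7 inhibitor gene Lin28b at 2.74. The highest value of these genes in the other 8 tumours was 0.27. Tumour 18 (40% epithelial) had a gain on chromosome 6 from 118.1 to 120.4 Mb with a peak of 1.14. The receptor tyrosine kinase gene Ret shared this peak value with Csgalnact2, Bms1, Zfp248, Zfp9 and Ankrd26. Rad52, a gene of a side path of recombination, stood at 1.08 in that gain, at -0.67 in tumour 45, and between -0.07 and 0.06 in the other 7 tumours.

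Across the genome, counts of breakpoints and shares of gained genes lay higher in every epithelial-rich carcinosarcoma than in any epithelial-poor one, without passing adjustment. Breakpoints, counted as changes of segment value between neighbouring genes, numbered 14, 17 and 21 in tumours 17, 18 and 4. They numbered 23, 39, 45, 54, 75 and 83 in tumours 21.1, 54.2, 45, 54.1, 6 and 53. The groups did not overlap, and the means were 53.2 ± 22.6 (SD, n = 6) and 17.3 ± 3.51 (SD, n = 3). The exact permutation p was 0.0238, the smallest that 6 against 3 tumours allow, and the adjusted p over the 7 tumour measures was 0.0556. Large-scale transitions, which are breakpoints between segments of at least 10 Mb and a usual sign of defective homologous recombination, numbered 0, 2 and 4 in the epithelial-poor tumours and 5, 5, 6, 8, 12 and 13 in the epithelial-rich ones (exact permutation p = 0.0238, adjusted p = 0.0556). The gained share of genes was 0.140%, 0.0643% and 0.0942% in tumours 17, 18 and 4 and from 0.172% to 6.48% in the epithelial-rich tumours, again without overlap (exact permutation p = 0.0238, adjusted p = 0.0556). None of the 3 measures passed at 0.05 after adjustment. Within library series 5289 all 3 kept groups without overlap, with means of 47.7 and 17.3 breakpoints, 8.33 and 2.00 transitions and 3.17% and 0.0996% of genes gained, where 3 against 3 tumours cannot go below an exact p of 0.1.

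Losses and weak shifts separated the groups less. The lost share was 0% in tumours 17 and 4, 6.49% in tumour 18, and 3.25% to 11.1% in the epithelial-rich tumours (means 2.16% and 7.53%, exact permutation p = 0.0714, adjusted p = 0.1). The altered share, gains and losses together, was 10.4% ± 4.90 (SD, n = 6) against 2.26% ± 3.72 (SD, n = 3), with p and adjusted p as for the lost share. Amplitude, the 95th percentile of the size of autosomal segment values, was 0.27 to 0.91 against 0.14 to 0.42 (exact permutation p = 0.119, adjusted p = 0.139). Counted at a segment value beyond 0.1 in size, however, the share of genes was 27.5% ± 8.25 (SD, n = 6) against 25.3% ± 18.5 (SD, n = 3), with an exact permutation p of 0.810. Tumour 4 (2% epithelial) had the most genes beyond 0.1 of all 9 tumours (45.9%) and the fewest called (0.0942%). Its chromosomes 1, 2, 7, 8, 12 and 15 were shifted over their whole length, each by 0.10 to 0.33. Broad segments of over 100 genes beyond 0.1 had a median size of 0.13 in tumour 17 and 0.14 in tumour 4, against 0.42 in tumour 18 and 0.16 to 0.80 in the epithelial-rich tumours.

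**Figure D3:**
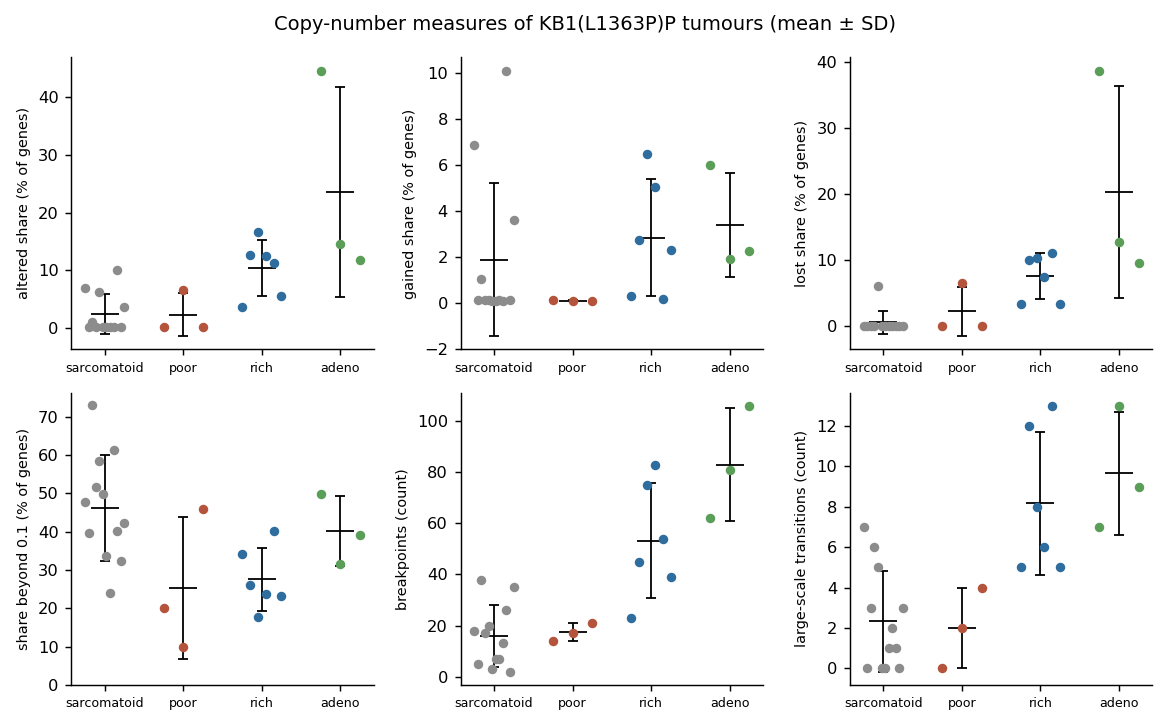
Copy-number measures (vertical axes, % of genes or counts) of the 24 KB1(L1363P)P tumours by histology, 1 point per tumour, with mean and SD as bars. "Poor" and "rich" are the carcinosarcoma groups. Epithelial-rich tumours have 23 to 83 breakpoints and epithelial-poor tumours 14 to 21, while the shares beyond 0.1 overlap.

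No measure separated either carcinosarcoma group from the histology class next to it. Epithelial-poor carcinosarcomas and the 12 sarcomatoid tumours had 17.3 and 15.9 breakpoints (exact permutation p = 0.835), and altered shares of 2.26% and 2.37%. The share beyond 0.1 was lower in the carcinosarcomas (25.3% against 46.2%, exact permutation p = 0.0527, adjusted p = 0.369). Epithelial-rich carcinosarcomas and the 3 adenocarcinomas had 53.2 and 83.0 breakpoints (exact permutation p = 0.119, adjusted p = 0.278), and 8.17 and 9.67 transitions (exact permutation p = 0.571). The lost share was 7.53% against 20.3% (exact permutation p = 0.0952, adjusted p = 0.278). With 3 tumours in 1 arm these tests leave room for sizeable differences.

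Chromosome 12 was low in all 9 tumours and was the lowest chromosome in 8 of them. Its mean segment value was -0.24, -0.57 and -0.33 in tumours 17, 18 and 4, and -0.57, -0.46, -0.91, -0.87, -0.85 and -0.37 in tumours 21.1, 45, 6, 53, 54.1 and 54.2. The ranges overlapped (difference -0.30, exact permutation p = 0.0952, adjusted p = 0.476 over 20 chromosomes). Tumours 6, 53 and 54.1 had lost the whole chromosome by the calls. Tumours 18 and 21.1 had lost it from 27.6 and 39.6 Mb onwards, and tumour 54.2 had lost its distal 893 placed genes and gained those before them (0.35). Tumour 45 had lost it from 6.97 to 100.3 Mb, after a gain of 1.2 over the genes that include Dnmt3a, a DNA methyltransferase gene. Loss calls met in all 6 epithelial-rich tumours for 743 genes (1.71% of all). The 531 placed ones all lay in a stretch of 52.0 Mb on chromosome 12 that ends at 100.5 Mb. They include Foxa1, a pioneer factor of luminal epithelium, Fancm and Rad51b of the recombination and Fanconi pathways, Sav1, the scaffold of the Hippo kinases, and Tgfb3, a growth factor gene. Mean levels over this stretch, which was chosen by these calls and was not tested, were -0.91 to -0.58 in epithelial-rich tumours. They were -0.67, -0.33 and -0.24 in epithelial-poor tumours 18, 4 and 17, -0.52 to -0.05 in sarcomatoid tumours and -0.89 to -0.41 in adenocarcinomas.

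**Figure D4:**
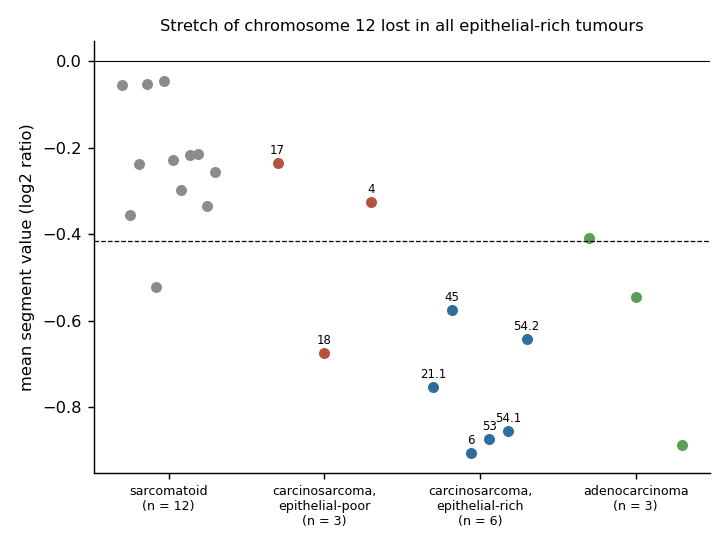
Mean segment value (log2 ratio, vertical axis) over the stretch of chromosome 12 with loss calls in all 6 epithelial-rich tumours, 1 point per KB1(L1363P)P tumour, by histology. The dashed line marks the loss threshold (-0.42). Epithelial-rich tumours lie from -0.91 to -0.58, below the line by the choice of the stretch. Epithelial-poor tumours 17 and 4 lie at -0.24 and -0.33, and epithelial-poor tumour 18 at -0.67, within the epithelial-rich range.

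Chromosome 2 was the only chromosome on which the groups did not overlap. Its level was -0.10, -0.01 and -0.15 in tumours 17, 18 and 4. In epithelial-rich tumours 21.1, 45, 6, 53, 54.1 and 54.2 it was -0.01, 0.00, -0.00, 0.01, 0.00 and 0.06. The difference of 0.10 is small, and tumours 18 and 21.1 had the same rounded level (exact permutation p = 0.0238, adjusted p = 0.476). No chromosome passed adjustment, which 84 splits over 20 chromosomes cannot reach for a single chromosome.

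Further changes varied between the epithelial-rich tumours, with some shared, and the single highest chromosome differed in all 6. Tumour 6 was highest on chromosome 19 (0.50) and had lost most of chromosome 18 (-0.50) and the end of chromosome 8 (-0.89 from 91.7 Mb). Tumour 53 was highest on chromosome 15 (0.54), which carries Myc, and low on chromosomes 9 (-0.36) and 14 (-0.36). Tumour 54.1 was highest on chromosome 8 (0.23) and low on chromosomes 14 (-0.77), 5 (-0.46) and, like tumour 53, 9 (-0.37). Tumour 45 was highest on chromosome 6 (0.14) and lowest on chromosome 16 (-0.52). Tumour 21.1 was highest on chromosome 1 (0.14), and tumour 54.2 on chromosome 13 (0.12). Chromosome 14 was also low in tumour 21.1 (-0.25). Among the epithelial-poor tumours chromosome 15 was highest in tumours 17 (0.14) and 18 (0.04) and chromosome 8 in tumour 4 (0.18), and tumour 18 had a loss call over chromosome 16 (-0.42). The only stretch of deep loss in the 9 tumours (0.427% of all genes in at least 1 tumour) was on chromosome 14 of tumour 54.1, at -1.54 from 98.9 to 120.9 Mb, and held Rpl36a-ps1, Dis3 and Klf5. Rb1, the retinoblastoma gene on the same chromosome, was at -0.84 in tumour 54.1 and -0.85 in tumour 53, against -0.25 to 0.01 in the other 7 tumours.

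**Figure D5:**
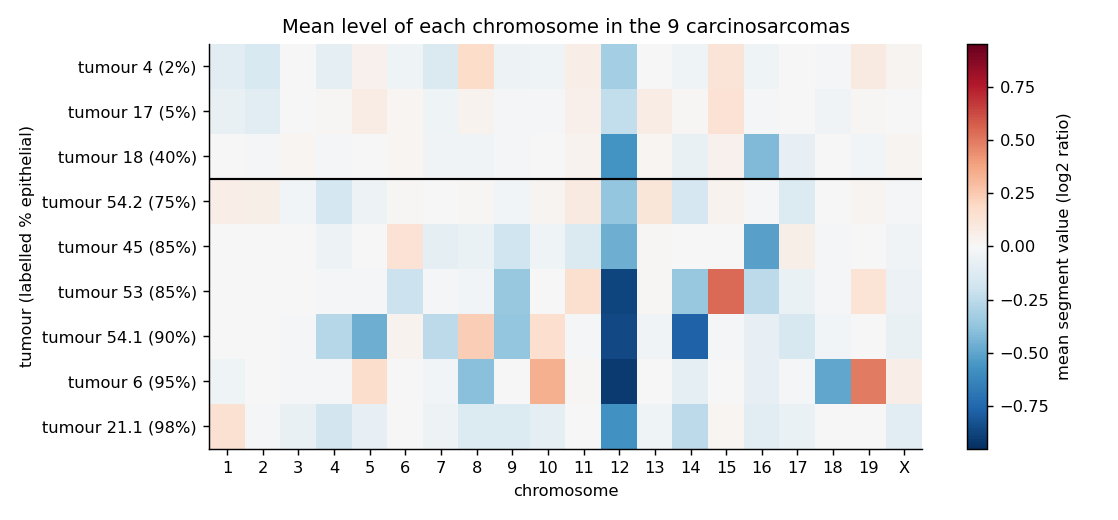
Mean segment value (colour, log2 ratio) of each chromosome (horizontal axis) in the 9 carcinosarcomas (vertical axis, ordered by labelled percent epithelial, with a line between epithelial-poor tumours above and epithelial-rich tumours below). Chromosome 12 is blue in every tumour, from -0.24 in tumour 17 to -0.91 in tumour 6.

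The profiles of tumours 17 and 4, which share the Yap1 amplicon, were the most alike of the 36 pairs (Pearson r = 0.85 over autosomal genes, given as a description). Without chromosomes 6 and 9 this r was 0.84. Tumours 54.1 and 54.2 had r = 0.59, the fourth highest, and 9 of the 54 breakpoints of tumour 54.1 (16.7%) and 8 of the 39 of tumour 54.2 (20.5%) lay within 1 Mb of a breakpoint of the other. Without chromosomes 6 and 9 their r was 0.45. Their gains of Met were near equal, but the mean levels of chromosomes 5, 7, 9 and 14 were -0.46, -0.25, -0.37 and -0.77 in tumour 54.1 and -0.05, -0.01, -0.03 and -0.16 in tumour 54.2. Tumours 21.1 and 54.2 had r = 0.79 and different title numbers. For tumours 53 and 54.1, also with different title numbers, 19.3% and 24.1% of the breakpoints lay within 1 Mb of one in the other. The median r was 0.34 between epithelial-rich tumours (15 pairs), 0.26 between epithelial-poor tumours (3 pairs) and 0.19 across the groups (18 pairs). Without chromosomes 6 and 9 the medians were 0.34, 0.55 and 0.33. Values along a chromosome move together, so these correlations rest on few independent changes.

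Tested gene by gene, 0 of 43513 genes passed at an adjusted limma p under 0.05 in either direction (0% called). At an unadjusted p under 0.05 there were 3132 genes with higher values in epithelial-rich tumours (7.2% of all) and 1668 with lower values (3.83%). The placed ones lay in few stretches: 2562 on chromosome 2 (median difference 0.10), 30 at Met (3.62), 893 on distal chromosome 12 (-0.36), 388 on chromosome 11 (-0.08) and 33 at Yap1 (-3.11). Groups did not overlap for 3087 genes that were higher (7.09%) and 1653 that were lower (3.8%) in epithelial-rich tumours, and the placed ones lay on chromosomes 2 and 11. Fisher's exact test of gain and loss calls gave 0 genes after adjustment and 45 at an unadjusted p under 0.05, all gains (0.103% of genes), which is the number gained in 5 of 6 epithelial-rich and no epithelial-poor tumours. Without tumour 18, which carries neither amplicon, limma called 3870 genes, 3087 higher (7.09%) and 783 lower (1.8%). The placed ones were 2562 on chromosome 2 with a median difference of 0.13, 531 on chromosome 12 (-0.49) and the 33 of the Yap1 amplicon (-4.61, limma smallest adjusted p = 4.16e-07). That fit leaves only tumours 17 and 4 as epithelial-poor, which both carry the Yap1 amplicon and no loss call on chromosome 12. Its calls at these loci therefore follow largely from which tumour was left out and give no separate support.

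By function, 0 genes of any of the 7 lists passed. Over all genes 12184 had higher and 31329 lower values in epithelial-rich tumours, against which the splits below are to be read. Of 20 genes of the Hippo pathway and the Yap1 locus 3 had higher and 17 lower values in epithelial-rich tumours (median difference -0.04, against -0.03 over all genes). Unadjusted limma p values under 0.05 were found for Yap1 and its neighbours Birc2 and Birc3 in the same amplicon, for Sav1 (-0.36) and, with a higher value, for the kinase gene Stk4 (0.10). Over all genes 11% had such p values. The Tead genes, Wwtr1, which encodes the paralogue Taz, and the target genes Ccn1 and Ccn2 differed by -0.04 to 0.08. Of 23 receptor and Ras genes 6 were higher and 17 lower (median -0.04). After Met, the largest difference was that of Fgfr3 (-0.21), which was -0.86 in tumour 54.1 and between -0.08 and 0.07 in the others. Hgf, the ligand of Met, differed by -0.20 and had a loss call in 1 epithelial-rich tumour.

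Of 23 cell cycle, p53 and Myc genes 3 were higher and 20 lower (median -0.07), led by Rb1 (-0.32) and Mycn (-0.30). Mycn, near the start of chromosome 12, was lost in 4 epithelial-rich tumours (-0.91, -0.87, -0.85 and -0.58), gained in tumour 54.2 (0.35) and between -0.33 and 0.00 in the other 4 tumours. Myc itself had a gain call in tumour 53 alone (0.54). Among recombination and PARP inhibitor genes, 33 in all, 11 were higher and 22 lower (median -0.07). Loss calls for Fancm and Rad51b were found in 6 of 6 epithelial-rich and 1 of 3 epithelial-poor tumours (difference -0.36 ± 0.11 SE, limma adjusted p = 0.297 for Fancm). Both lie in the stretch of chromosome 12 described above, and 743 genes (1.71% of all) had loss calls in all 6 epithelial-rich tumours. Abcg2, a drug efflux pump gene on chromosome 6, was 1.16 in tumour 45 and -0.84 in tumour 53. Xrcc3, a recombination gene at the far end of chromosome 12, differed by -0.32.

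Genes that mark the epithelial and mesenchymal states also had no call. Of 26 epithelial genes 11 were higher and 15 lower (median -0.00), and of 24 mesenchymal genes 12 were higher and 12 lower (median 0.00). Foxa1 had loss calls in 6 epithelial-rich tumours and 1 epithelial-poor tumour (difference -0.36). It lies in the same stretch of chromosome 12 as Fancm, with the same values, and is among the 1.71% of genes lost in all 6 epithelial-rich tumours. Grhl1, a grainyhead factor gene of epithelium on proximal chromosome 12, differed by -0.30. Cdh1, which encodes E-cadherin, differed by -0.21 and had a loss call in tumour 6 alone, as did the mesenchymal cadherin gene Cdh11 on the same chromosome. Tgfb3 lay with Foxa1 on chromosome 12 (-0.36). Zeb2, Snai1 and Vim, all on chromosome 2, each differed by 0.10. The epithelial genes Ovol2, Elf5, Ehf, Gata3 and Tfap2c on the same chromosome also each differed by 0.10, so this shift is not particular to mesenchymal genes. Of 30 other tumour suppressors 7 were higher and 23 lower (median -0.07). The largest difference was that of Foxo3 (0.63), set by tumour 6, and then came Dicer1, the microRNA-processing gene, and Traf3, a signalling adaptor gene, with the same value on chromosome 12 (-0.32). Outside the lists the largest differences by chromosome, after Met, Dcun1d5 at the Yap1 amplicon (-3.11), Mfsd4b4 (0.69) and Rpl36a-ps1 (-0.44), were Zfp36l2 on chromosome 17 (-0.25, with losses in tumours 21.1 and 54.1), Kcnip4 on chromosome 5 (-0.23) and Irx3 on chromosome 8 (-0.21).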

How the data were processed

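The series covers low-coverage sequencing of DNA from 98 tumours and 3 spleens. Alignment with BWA and counting in 20-kb bins are stated per the labels' protocols, and bin counts were corrected for GC content and mappability. The submitters' processing notes name cutadapt 2.5, BWA 0.7.17, SAMtools 1.10, Picard and mm10. A human build stands in the protocol text. How values were segmented, what the ratios refer to and how bins became genes is not given in the sources used here.

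The deposited values are log2 ratios and log2 segment values per gene, and a deposited copy score in whole numbers, with 2 as neutral, accompanies them. In 99.9919% of entries it was the rounded linear form of the segment value, scaled to 2 for neutral.

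Positions of 32708 of 43513 symbols came from RefSeq (GRCm38.p6). The symbol Npn2 was left without a position because it differed from both neighbours in over 90% of samples. For large-scale transitions, segments shorter than 3 Mb were dropped and neighbours less than 0.1 apart were merged. Segment values of the 9 tumours entered limma 3.58.1 (R 4.3.3) over all genes, copy calls Fisher's exact test, and tumour measures and chromosome levels two-sided exact permutation tests, all with Benjamini-Hochberg adjustment. SciPy 1.17.1, pandas 2.3.3, NumPy 2.4.6 and matplotlib 3.10.9 under Python 3.11.15 served for the rest. Methods were tested on simulated data. Members, lists and tests were chosen with earlier results of these data known. Named are the engineered genes, list members past 1 or -1 in any tumour, the 2 largest differences per list and the largest difference on each of 8 chromosomes, and the highest and lowest chromosome of each tumour. A gene that this rule names is not reported here. All other genes in the text were named after their values were seen. Akt1, Aurka, Cdkn2b, Erbb3, Shld3, Abcb1a and Loxl2 were absent from the table. Alternatives covered the shared title number, library series, scaling, thresholds and single tumours. The comparison of Yap1 and Met between histologies and the removal of Npn2 were added after the data were seen.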

Additional observations from a re-analysis of the deposited data

Results flagged for a closer look

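Among the 6 epithelial-rich carcinosarcomas, 54 values (7 tumour measures, 20 chromosome levels and 27 named genes) were examined for a tumour far from the other 5, by Dixon's test at a critical gap of 0.625 of the range. Such a tumour was found for 16 values. In unselected, independent groups chance flags about 1 in 20. That share is no yardstick for these values, because many of the genes were named for a high or low value in a single tumour and genes share segments.

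Tumour 6 stood apart on chromosomes 18 (-0.50, others -0.02 to 0.01) and 19 (0.50, others -0.00 to 0.13), at Foxo3 (3.54) and Mfsd4b4 (3.90) on chromosome 10 (others -0.08 to 0.27), and at Cdh11 and Irx3 on chromosome 8 (each -0.89, others -0.15 to 0.27). It is also the epithelial-rich tumour without Met amplification.

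Tumour 54.1 stood apart on chromosome 7 (-0.25, others -0.09 to -0.01) and at Fgfr3 and Kcnip4 on chromosome 5 (each -0.86). Tumour 54.2, with the same title number, stood apart on chromosomes 2 (0.0589, others -0.01 to 0.01) and 13 (0.12, others -0.04 to 0.01). Tumour 45 stood apart at Braf (1.04, others -0.10 to 0.00) and Rad52 (-0.67, others -0.07 to 0.02), both on chromosome 6. Tumour 53 stood apart on chromosome 15 (0.54, others -0.02 to 0.03) and at Brca1 (0.32, others -0.02 to 0.01), and tumour 21.1 on chromosome 3 (-0.0740, others -0.02 to 0.00).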

How the results depend on the processing

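The count of 0 genes from limma was the same under 16 of 17 alternatives, and 3870 without tumour 18. In that fit the epithelial-poor group is only tumours 17 and 4, both with the Yap1 amplicon. The range over single tumours left out was 0 to 3870. Fisher's exact test of calls gave 0 genes under all 10 of its alternatives. The difference in the share beyond 0.1 was -0.36 points without tumour 54.1, -0.40 points without tumour 17 and -5.51 points without tumour 18, and ran from -5.51 to 12.5 points over single tumours left out. Altered, gained and lost shares, breakpoints, transitions and amplitude kept their direction and did not pass adjustment under any alternative, with breakpoint differences of 18.5 (segments of at least 10 genes only) to 41.9. The altered share differed by 14.1 points when counted beyond 0.2. Amplitude uses autosomes already, so it has no separate value for them. Chromosome levels gave 0 calls throughout, and the measures gave 0 calls against sarcomatoid tumours and adenocarcinomas without single tumours (an alternative added with the data in view).

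For Yap1 between epithelial-rich and sarcomatoid tumours the difference was -83.3 points of tumours in library series 5289 alone, with an adjusted p of 0.176. It was -83.3 points with any single carcinosarcoma left out (Fisher's exact adjusted p = 0.0121 to 0.0271). For Met, leaving out tumour 6 took 3 comparisons past the threshold: 83.3 points against sarcomatoid tumours (range 63.3 to 83.3), and 100.0 points against adenocarcinomas and against epithelial-poor tumours (range 80.0 to 100.0). Tumour 6 is the only epithelial-rich tumour without this gain, so its removal could only strengthen these differences and gives no separate support. The Yap1 difference between epithelial-poor and sarcomatoid tumours was 16.7 points without tumour 18, the only epithelial-poor tumour without that gain (range -33.3 to 16.7).

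Of 378 alternative values for 27 named genes, 360 kept direction and side. The difference for Brca1 was -0.0439 in series 5289 and with series as a covariate, -0.122 in log2 ratios, and -0.0437 to 0.0244 over single tumours left out, lowest without tumour 53. For Abcg2 it was -0.0144 in log2 ratios and -0.228 (without tumour 45) to 0.173 over single tumours left out. For Braf the latter range was -0.0608 (without tumour 45) to 0.168, and for Brca2 -0.0109 (without tumour 6) to 0.131. The cause of these shifts was not tested. No paired analysis was possible because the replicate numbers of the groups follow accession order and pair no tumours.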

Other observations

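The series holds 3 more carcinosarcomas of other genotypes, which entered no comparison. The KP tumour 5 (90% epithelial) had both amplifications, with Yap1 at 4.14 and Met at 4.47. The other KP tumour (also 90%) had Met at 5.04 and Yap1 at 0.64, below high-level gain. The KB1P tumour 30 (80%) had neither, with Yap1 at -0.02 and Met at 0.03. Their breakpoints numbered 30, 97 and 23.

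The genotype also holds pairs of tumours with a shared title number but different histology. Sarcomatoid tumour 7.1 had Yap1 at 4.48 and Met at -0.00, and adenocarcinoma 7.2 had Yap1 at -0.02, Met at 0.25 and Myc at 2.13. Their profiles correlated with r = 0.08 and none of the 2 breakpoints of tumour 7.1 lay within 1 Mb of the 81 of tumour 7.2. Sarcomatoid tumour 26.1 had Met at 3.82 and Yap1 at -0.23, and adenocarcinoma 26.2 had Met at 0.01 and Yap1 at 0.05, with r = 0.11 and 0 shared breakpoints of 38 and 62. These r values are below the 0.59 of carcinosarcomas 54.1 and 54.2. Without chromosomes 6 and 9, r was 0.15 for tumours 7.1 and 7.2, 0.16 for 26.1 and 26.2, and 0.45 for 54.1 and 54.2. Sarcomatoid tumour 10, which had neither amplification at high level, had Myc at 2.91.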
